A study of Mus musculus with 40 samples.

Results

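The genes described here are type I interferon-induced genes, and they were taken from a list of 37 mouse symbols of well-known interferon targets. Each gene was represented by the probe set that named it alone and had the highest mean over the 40 arrays. Of the 37 genes, 33 had such a probe set among the 17097 named genes of the series, and Isg15, Ifi44, Bst2 and Ly6a are not analysed here. All samples came from B16F10, a mouse melanoma line, and the question was how epigenetic drugs reshape the tumour and its surroundings. The cultures comprised 4 given OTX015, a drug that keeps BET bromodomain proteins off acetylated histones, and 4 untreated control cultures. The tumours grew from B16F10 cells placed under the skin of C57black6J mice aged 8 weeks. They comprised 10 from mice given OTX015 by mouth, against 11 untreated tumours of the OTX015 experiment, and 6 from mice given guadecitabine, an inhibitor of DNA methylation, into the abdomen, against 5 untreated tumours of the guadecitabine experiment. The labels give no dose, length of treatment, vehicle or sex, so untreated means only that no drug is named. Nor do they tell if replicates were different cultures or mice, and p-values then measure only the spread between these samples, which may be technical.

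Type I interferons bind a receptor shared by nearly all nucleated cells, and the kinases Jak1 and Tyk2 bound to it switch on a complex of Stat proteins and Irf9. That complex binds interferon-stimulated response elements in promoters and turns on genes whose products block viral entry, degrade or sequester foreign RNA, modify proteins with ubiquitin-like tags or ADP-ribose, and limit the response itself. In tumours the same genes are used as a readout of interferon made by, or acting on, malignant, myeloid and lymphoid cells.

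Promoter windows of 6 genes are shown because the complex of Stat proteins and Irf9 binds interferon-stimulated response elements. These genes also moved differently in the comparisons described later. The RefSeq promoter table of build GRCm38.p6 (250 bases before to 50 after each start) held 27 of the 37 listed genes. The core of the element was searched as GAAANNGAAA and, for the other strand, as TTTCNNTTTC. It occurred in 10 of these 27 genes (37.04%), against 3.99% of the 27025 genes of the table. The gamma-activated site, searched as TTCNNNGAA, which reads alike on both strands, occurred in 4 of the 27 genes (14.81%), against 9.55% of all genes, and 2 of the 27, Ifitm3 and a gene without a probe set of its own, held both motifs, with letters in common. Shown are the 160 bases before the start of the 6 measured genes that had the core there, with the core in capitals. Trim21 and Ifitm3 held it only after the start. The windows were chr19:34640729-34640888 on the plus strand for Ifit1, chr19:34583369-34583528 plus for Ifit3, chr12:26456453-26456612 minus for Rsad2, chr7:104465194-104465353 minus for Trim30a, chr5:120777660-120777819 minus for Oas3 and chr8:61927927-61928086 plus for Ddx60.
Ifit1: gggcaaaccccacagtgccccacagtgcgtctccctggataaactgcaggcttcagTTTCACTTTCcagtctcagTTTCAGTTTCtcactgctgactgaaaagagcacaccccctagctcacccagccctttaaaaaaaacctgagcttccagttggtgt
Ifit3: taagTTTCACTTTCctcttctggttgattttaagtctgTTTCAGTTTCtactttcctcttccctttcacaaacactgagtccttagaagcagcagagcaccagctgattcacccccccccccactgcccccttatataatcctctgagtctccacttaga
Rsad2: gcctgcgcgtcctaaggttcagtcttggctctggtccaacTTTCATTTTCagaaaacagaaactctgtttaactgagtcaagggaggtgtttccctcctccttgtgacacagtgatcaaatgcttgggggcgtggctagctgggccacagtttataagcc
Trim30a: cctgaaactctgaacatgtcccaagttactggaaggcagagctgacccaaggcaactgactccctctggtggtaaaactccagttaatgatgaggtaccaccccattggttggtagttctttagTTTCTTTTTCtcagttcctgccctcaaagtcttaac
Oas3: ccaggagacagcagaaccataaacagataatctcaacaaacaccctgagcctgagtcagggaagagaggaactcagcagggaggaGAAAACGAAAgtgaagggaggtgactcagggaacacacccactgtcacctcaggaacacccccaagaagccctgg
Ddx60: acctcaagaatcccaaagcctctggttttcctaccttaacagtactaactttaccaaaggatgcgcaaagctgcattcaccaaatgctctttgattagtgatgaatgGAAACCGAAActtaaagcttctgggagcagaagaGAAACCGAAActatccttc
Ifit1 held the core at 104 and 85 bases before the start and Ifit3 at 156 and 122 bases, while the nearest one in Ddx60 lay 19 bases before the start. Among measured genes with a listed promoter, 6 of the 17 that were lower with OTX015 in cultured cells held the core, and so did 2 of the 7 that were not lower, Oas3 and Ddx60. A match describes these letters only and is not evidence of binding.

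Values are deposited RMA values on the log2 scale, so a difference of log2 values is a log2 fold change. Background was set per group as the 95th percentile of 83 probe sets for olfactory and vomeronasal receptors and lay between 4.34 and 4.70. The 10 arrays of OTX015-treated tumours had lower means over all probe sets, 4.35 to 4.39, than the other 30 arrays, 4.55 to 4.64, and the comparison of these tumours was therefore made after quantile normalization of its 21 arrays. On the deposited values, the median of all genes was -0.21 in that comparison. Arrays with a low spread over probe sets were OTX015 tumour 4, guadecitabine tumours 3 and 6, and control tumours 9 and 11 of the OTX015 experiment, and counts without them are given beside the results. All 7 melanocyte markers were above background in every group. Tumour samples are bulk tissue as far as the labels say, so fewer cells of a type and less RNA per cell cannot be told apart.

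How many of the genes lay above background differed by group. The number above background was 17 of 33 in OTX015-treated cultures and 21 in control cultures, 20 in OTX015-treated tumours and 23 in their controls, and 22 in guadecitabine-treated tumours and 22 in their controls. At the stricter 99th percentile of the receptor probe sets the numbers were 5 and 16, 18 and 19, and 19 and 19 in the same pairs. The 14 genes above background in all 6 groups were Cmpk2, Dtx3l, Ifi35, Ifit2, Ifitm3, Lgals3bp, Parp12, Parp14, Parp9, Rsad2, Rtp4, Trim21, Trim25 and Xaf1. The 7 that were below it in every group were Ddx60, Irf7, Mx1, Oas3, Oasl1, Oasl2 and Sp100, among them the RNA-sensing enzyme Oas3, the GTPase Mx1 and the transcription factor Irf7. Oas2, of the same family as Oas3, was above background in the 4 tumour groups and below it in both groups of cultures. Its tumour means of 4.46 to 4.78 lay close to the backgrounds of 4.34 to 4.70, and none passed the 99th percentile. The other 12 crossed background between groups, among them Ifit1, Ifit3, Samd9l, Trim30a and Usp18.

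**Figure D1:**
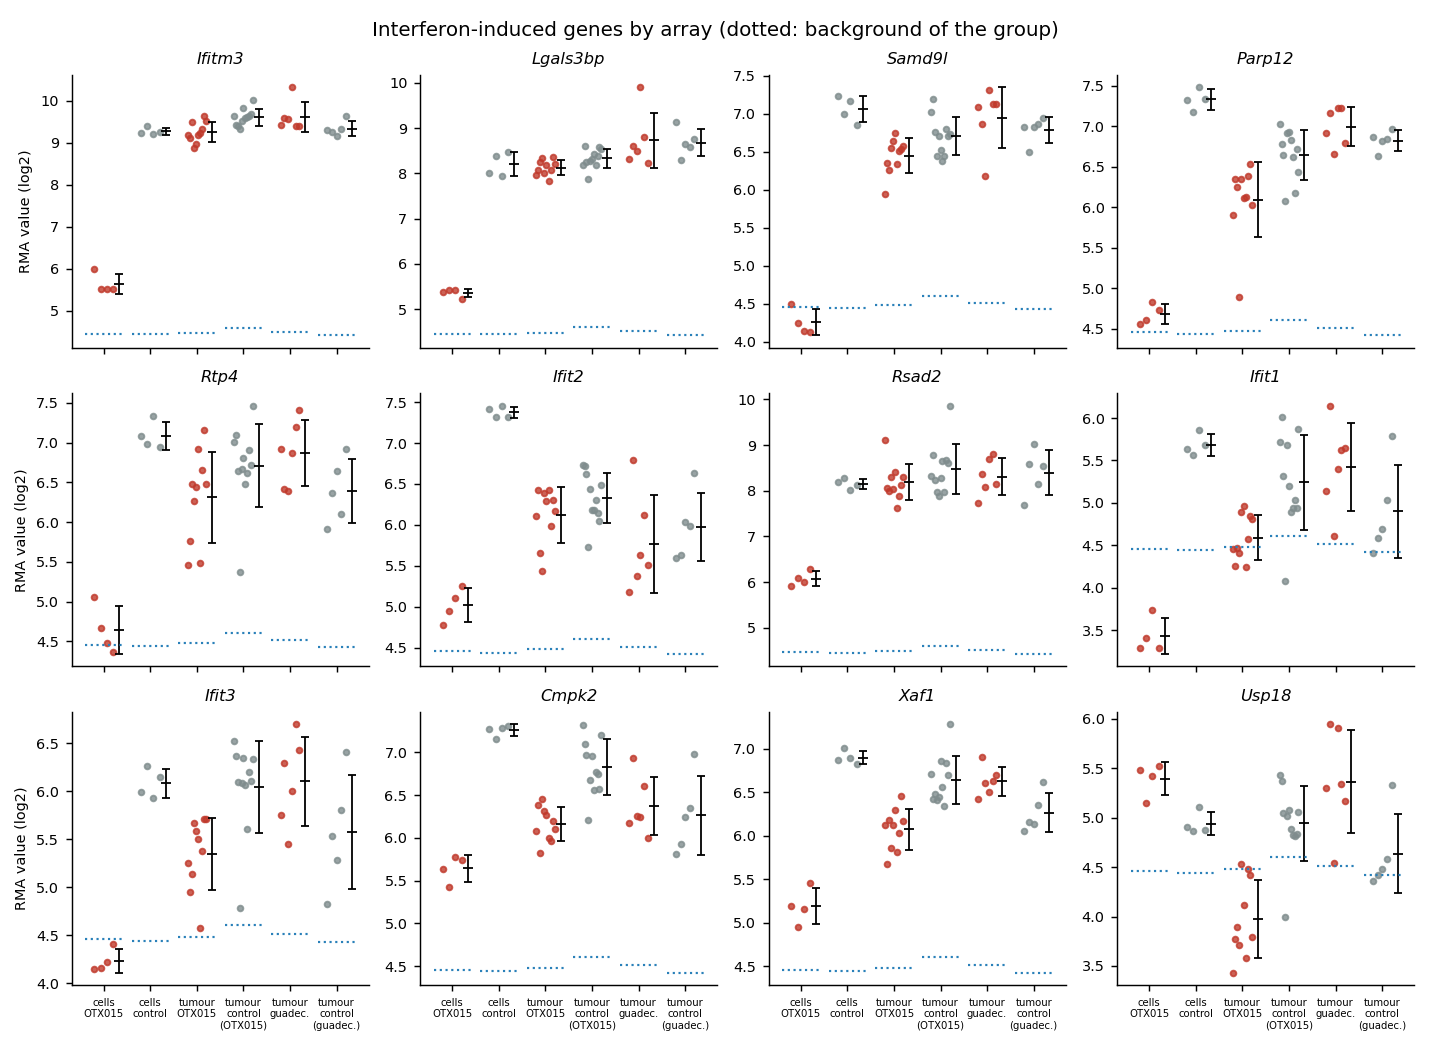
RMA value (log2) of 12 interferon-induced genes in each array of the 6 groups, treated groups in red and their controls in grey. Points are arrays, black marks and bars are means and SD, and dotted lines are the background of each group. Both tumour groups of the OTX015 experiment are quantile normalized. Of the 12 genes, 11 lie far lower in OTX015-treated than in control cultures, whereas treated and control tumours overlap in every panel, and Usp18 is the gene that is higher in treated cultures.

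In cultured cells OTX015 lowered 21 of the 33 interferon-induced genes and raised 1, Usp18, whereas 21.8% of all 17097 genes were called lower and 17% higher at an adjusted p under 0.05. The median change of the 33 genes was -0.51, against -0.0018 for all genes. In 19 genes every treated culture lay below every control culture, an arrangement seen in 21.1% of all genes, and in 2 genes every treated culture lay above every control culture, seen in 16.7% of all genes. Of the 21 lower genes, 18 were above background in at least 1 group. The other 3, Mx1, Sp100 and Oasl2, fell by 0.51, 0.28 and 0.21 below background in both groups, and with values floored at background none of these 3 was called.

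Among the Ifit proteins, which bind viral RNA and block its translation, all 3 measured genes fell. Ifit2 had values of 4.78, 4.95, 5.11 and 5.25 in treated cultures, against 7.41, 7.31, 7.46 and 7.31 in control cultures, a log2 change of -2.35 ± 0.10 (SE, n = 4 each) with an adjusted p of 3.6e-09 by limma. Ifit1 had 3.29, 3.41, 3.74 and 3.29 in treated cultures, against 5.64, 5.56, 5.86 and 5.68 in control cultures. The groups did not overlap for either gene. Because Ifit1 was below background in treated cultures, its fall of 2.25 on the log2 scale is bounded as at least 2.36-fold lower (adjusted p = 1.1e-08, limma), a bound that sets each treated array at its own background where it was dimmer. Ifit3 was also below background in treated cultures, and it was at least 3.11-fold lower (adjusted p = 1.51e-08, limma). The measured means were 4.23 ± 0.12 in treated and 6.09 ± 0.15 in control cultures (SD, n = 4 each).

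Effectors that act on membranes, nucleotides and translation fell as well. Ifitm3, a membrane protein that blocks fusion of viral and cell membranes, had 6.00, 5.51, 5.53 and 5.52 in treated cultures, against 9.23, 9.40, 9.22 and 9.25 in control cultures. Every treated culture was thus more than 3 log2 units below every control culture. Ifitm3 had the largest change of the 33 genes, -3.64 ± 0.11 (SE), which is 12.4-fold lower (adjusted p = 2.78e-10, limma). Rsad2, the enzyme viperin that makes a chain-terminating nucleotide, had 5.91, 6.08, 5.99 and 6.29 in treated cultures, against 8.20, 8.28, 8.01 and 8.12 in control cultures, without overlap and 4.23-fold lower. Its chromosomal neighbour Cmpk2, a mitochondrial nucleotide kinase, fell by 1.61 ± 0.09 (SE) on the log2 scale. Samd9l, a restrictor of viral translation, had 4.50, 4.25, 4.14 and 4.13 in treated cultures, against 7.24, 6.99, 7.17 and 6.85 in control cultures. The treated mean of 4.25 was below background, and Samd9l was at least 6.13-fold lower (adjusted p = 1.72e-09, limma).

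The secreted and transport proteins followed the same direction. Lgals3bp, a secreted glycoprotein that binds galectins, had 5.38, 5.41, 5.41 and 5.23 in treated cultures, against 8.02, 8.39, 7.93 and 8.48 in control cultures, 7.19-fold lower with an adjusted p of 3.57e-09 by limma. Rtp4, a chaperone that carries receptors to the surface, had 5.06, 4.67, 4.48 and 4.37 in treated cultures, against 7.08, 6.99, 7.33 and 6.95 in control cultures. Its groups did not overlap, and it was 5.43-fold lower, with the treated mean of 4.65 near the background of 4.46. Xaf1, an antagonist of the apoptosis inhibitor Xiap, fell by 1.71 ± 0.10 (SE) on the log2 scale.

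Genes for ADP-ribosylation and ubiquitin ligation fell too, over a wide range. Parp12, an ADP-ribosyltransferase, had 4.56, 4.62, 4.83 and 4.73 in treated cultures, against 7.33, 7.17, 7.48 and 7.34 in control cultures, and was 6.26-fold lower (adjusted p = 6.28e-10, limma). Parp9 and Dtx3l, partners in an ADP-ribosylating ubiquitin ligase, fell by 1.56 and 1.38, and Parp14 fell by 0.48. Trim25, a ligase that activates the sensor Rig-I, fell by 1.49, and the antibody receptor and ligase Trim21 fell by 0.50. Trim30a, a ligase that dampens NF-kB signalling in mouse cells, was below background in treated cultures and at least 1.53-fold lower. The remaining fall above background was in Ifi35, a leucine zipper protein, by 0.58.

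Usp18, which removes Isg15 from proteins and also restrains the interferon receptor, went the other way in culture. It had 5.49, 5.15, 5.42 and 5.53 in treated cultures, against 4.90, 4.86, 5.11 and 4.88 in control cultures, with no overlap and a change of 0.46 ± 0.09 (SE), adjusted p = 0.00185 by limma. With the spread estimated over all 6 groups the adjusted p of Usp18 by limma was 0.227. Znfx1, a helicase that senses double-stranded RNA, also had every treated culture above every control culture, with a change of 0.49 and an adjusted p of 0.0502 by limma, just over the threshold. Its mean was 4.13 in control cultures, below the background of 4.44, and 4.62 in treated cultures, near the background of 4.46. Treated replicate 1 was at 5.22, while the lowest treated culture (4.33) lay close to the highest control (4.30). The other 10 genes that were not called had changes between -0.22 for Ifi27l2a and 0.21 for Herc6, the ligase that attaches Isg15 in mice. Of these 10, Herc6 alone was above background in treated cultures, and only Herc6 and Mx2 were in control cultures.

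The pathway around the interferon-induced genes was mixed in cultured cells. The 4 measured ligand genes, of which Ifna2 alone was above background, did not pass the test, and Ifnb1 averaged 3.06 in treated and 3.23 in control cultures. Of 6 receptor and signalling genes, 3 were called higher and 2 lower. Jak1, the receptor kinase, rose by 1.14 and Ifnar1, a receptor chain, by 0.49, whereas Irf9, the DNA-binding part of the Stat complex, fell by 1.37 and Ifnar2, the other receptor chain, by 0.42. Of 11 sensing genes, 4 fell and 2 rose, with the largest falls in the RNA sensors Ifih1 (-1.68), Tlr3 (-1.14) and Ddx58, the gene of Rig-I (-0.97). Of 4 negative regulators, 1 rose and 2 fell. Macrophage markers lay mostly within background in culture: of 14 macrophage markers, 1 was above background in treated and 2 in control cultures, and their mean per culture ran between 3.70 and 3.78 in treated and between 3.69 and 3.88 in control cultures.

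**Figure D2:**
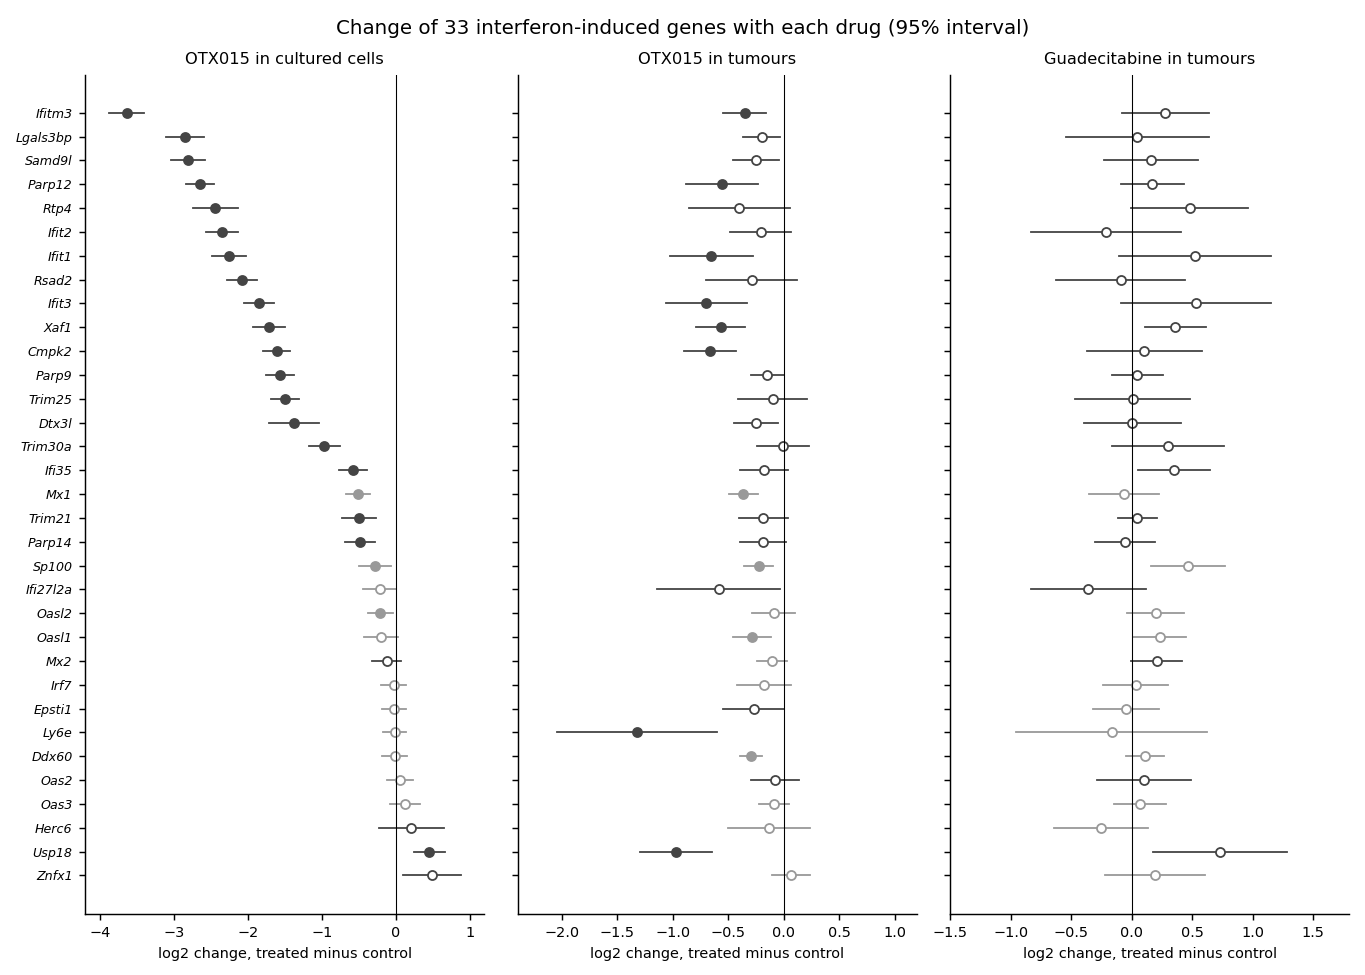
Log2 change with 95% interval of the 33 interferon-induced genes, treated minus control, for OTX015 in cultured cells, OTX015 in tumours and guadecitabine in tumours. Filled points passed an adjusted p of 0.05 and grey points were below background in both groups. The horizontal axes differ in range. In cultured cells 21 genes are called lower and 1 higher, in OTX015 tumours 12 are called lower, and with guadecitabine none is called.

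In tumours of OTX015-treated mice 12 of the 33 genes were lower and 0 higher, whereas 7.49% of all genes were called lower and 8.67% higher. The change was negative in 32 of the 33 genes, with a median of -0.25, against 0.0053 for all genes. The changes were smaller than in culture and the groups overlapped in every gene, so that in 0 of the 33 were all treated tumours below every control (0.55% of all genes). Of the 12 lower genes, 8 were above background in at least 1 group. With values floored at background 7 of the 12 were still called lower, as were 305 of all 17097 genes. On the deposited values, where treated arrays lay lower as a whole, 29 of the 33 genes were called lower, as were 9230 of all 17097 genes. Without the arrays of low spread the count was 12.

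Usp18 and 2 of the 3 Ifit genes were among the lower genes in tumours. Usp18, the negative regulator, had a lowest, median and highest value of 3.43, 3.84 and 4.54 in treated tumours, against 3.99, 5.02 and 5.43 in control tumours. All 10 treated tumours lay below the mean of the controls, although the ranges overlapped. The change was -0.97 ± 0.16 (SE, n = 10 and 11, adjusted p = 0.000164 by limma), and since treated tumours were below background, Usp18 was at least 1.34-fold lower. Ifit3 had 4.57, 5.44 and 5.72 in treated tumours, against 4.79, 6.11 and 6.53 in control tumours, a change of -0.70 ± 0.18 (SE). Ifit1 had 4.25, 4.52 and 4.96 in treated tumours, against 4.08, 5.20 and 6.02 in control tumours, and fell by 0.65 ± 0.18 (SE). The lowest control tumour lay within the treated range for Ifit3 and below it for Ifit1, and for both genes all 10 treated tumours were below the control mean. Ifit2, which fell by 2.35 in culture, had a change of -0.21 with an adjusted p of 0.323 by limma.

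Among the effectors, Cmpk2 had 5.83, 6.15 and 6.45 in treated tumours, against 6.21, 6.77 and 7.32 in control tumours, and fell by 0.67 ± 0.11 (SE, adjusted p = 0.000249 by limma). Xaf1 had 5.68, 6.12 and 6.45 in treated tumours, against 6.35, 6.56 and 7.28 in control tumours, a change of -0.57 ± 0.11 (SE). For both genes all 10 treated tumours lay below the control mean, but the ranges overlapped, from 6.21 to 6.45 for Cmpk2 and from 6.35 to 6.45 for Xaf1. The second probe set of Xaf1 was below background and 0.21 higher in treated tumours, and the mean of both probe sets was not called (-0.18, adjusted p = 0.0722 by limma). Parp12 had 4.90, 6.19 and 6.53 in treated tumours, against 6.07, 6.72 and 7.03 in control tumours, and its change of -0.56 was not called after centring each array on its median (adjusted p = 0.105 by limma). Ifitm3, with the largest fall in culture, fell by 0.35 in tumours, with medians of 9.21 in treated and 9.62 in control tumours.

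Ly6e, a lipid-anchored surface protein of the Ly6 family, had the largest measured difference in tumours, which lay partly below background, and the widest spread. Its lowest, median and highest values were 2.30, 3.45 and 4.93 in treated tumours, against 3.06, 4.81 and 6.34 in control tumours. The ranges overlapped over much of their length, 9 of 10 treated tumours lay below the control mean, and the change was -1.32 ± 0.35 (SE, adjusted p = 0.0116 by limma). Ly6e was below background in treated tumours, which leaves a bound of at least 1.2-fold lower, and with values floored at background it was not called (-0.48, adjusted p = 0.203 by limma). Mx1 had 2.45, 2.70 and 2.87 in treated tumours, against 2.87, 3.02 and 3.47 in control tumours, the ranges meeting only at their edge. It fell by 0.36 below background in both groups, as did Ddx60, a helicase that aids Rig-I signalling (0.30), Oasl1, which in mice represses translation of Irf7 (0.29), and Sp100, a nuclear body protein (0.23). With the replicate number as a block 10 genes were called, without Oasl1 and Sp100.

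Of the 12 genes lower in tumours, 8 were also lower in culture (66.7%), against 21 of all 33 genes (63.6%), so the overlap was near the share that being lower in culture gives. These 8 were 38.1% of the culture list. Over all genes, 20.5% of those lower in tumours were lower in culture, against 21.8% of those tested. The 8 genes were Cmpk2, Ifit1, Ifit3, Ifitm3, Mx1, Parp12, Sp100 and Xaf1. Rsad2, Samd9l, Rtp4 and Lgals3bp, 4.23-fold to 7.19-fold lower in culture, had changes of -0.29, -0.25, -0.40 and -0.20 in tumours, which did not pass the test. The 21 genes that were not called in tumours had changes between -0.59 for Ifi27l2a and 0.07 for Znfx1.

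Markers of some other cell types moved in the same tumours. Of 14 macrophage markers 12 were called lower, with a median change of -1.13, and the 2 others were Csf1r and Itgam, of which Itgam was below background in both groups. The mean of the 14 markers had a lowest, median and highest value of 4.67, 6.42 and 6.83 in treated tumours, against 6.25, 7.19 and 8.32 in control tumours. The mean of the 33 interferon-induced genes ran from 5.01 over a median of 5.22 up to 5.44 in treated tumours, against 5.04, 5.53 and 5.86 in control tumours. Of 8 T and NK cell markers 2 were lower, and the marker means had medians of 4.06 in treated and 4.19 in control tumours. Both medians were below the backgrounds of 4.48 and 4.61, and only 2 of the 8 markers were above background in each group. Called were 0 of 2 B cell, 0 of 4 endothelium and 0 of 2 plasmacytoid dendritic cell markers. The part of any of these cell types in the lower interferon-induced genes was not tested. Among pathway genes, 2 of 6 receptor and signalling genes fell, the kinase Tyk2 by 0.53 and Ifnar1 by 0.36. Of the 11 sensing genes 3 fell, with Irf3, the factor that starts interferon transcription, lower by 0.29 and Ifih1 and Zbp1 below background. The Ifnb1 gene was called higher, by 0.21, with both groups below background.

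**Figure D3:**
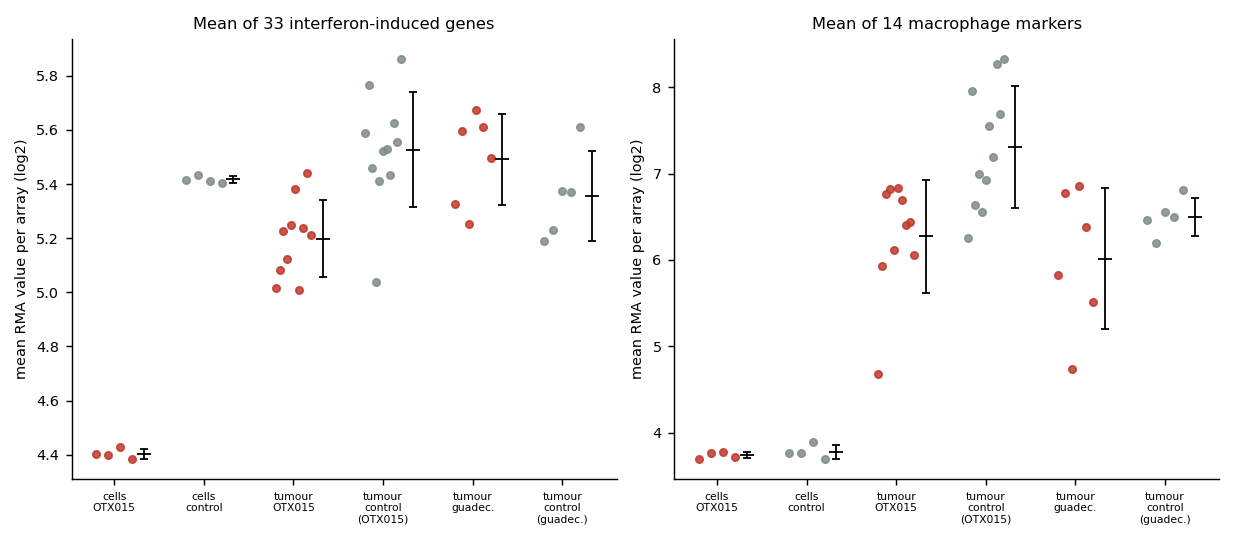
Mean RMA value (log2) per array of the 33 interferon-induced genes (left) and of 14 macrophage markers (right) in the 6 groups. Both tumour groups of the OTX015 experiment are quantile normalized, and the other groups are as deposited. Points are arrays, treated in red and controls in grey, and black marks and bars are means and SD. In cultures the interferon-induced genes separate treated from control, with means of 4.40 and 5.42, while macrophage markers stay near 3.7 in both. In tumours of the OTX015 experiment both sets are lower in treated mice with overlap.

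Guadecitabine gave no call in tumours. By limma 0 of the 33 genes were called higher and 0 lower, as was the case for 0% of all genes in either direction. At an unadjusted p under 0.05, 5 of the 33 genes were higher and 0 lower, against 3.94% of all genes higher and 1.99% lower. The change was positive in 25 genes and negative in 8, with a median of 0.11, against 0.04 for all genes. Without the arrays of low spread no member was called either, and the median was 0.16.

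The genes with the smallest p-values were of several families. Usp18 had a lowest, median and highest value of 4.54, 5.32 and 5.94 in treated tumours, against 4.36, 4.42, 4.48, 4.58 and 5.33 in the 5 control tumours. Of the 6 treated tumours 5 lay above the control mean, but the highest control lay within the treated range, and the difference of 0.73 ± 0.25 (SE, n = 6 and 5) had an adjusted p of 0.735 by limma. Xaf1 had 6.43, 6.62 and 6.90 in treated tumours, against 6.06, 6.16, 6.14, 6.35 and 6.62 in control tumours. All 6 treated tumours were above the control mean, and the difference was 0.36 ± 0.12 (SE). Ifi35 had 5.91, 6.12 and 6.25 in treated tumours, against 5.53, 5.95, 5.29, 6.04 and 5.97 in control tumours, a difference of 0.35 ± 0.14 (SE) in which the controls at 5.29 and 5.53 lay apart from the other 3.

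The other 2 genes at an unadjusted p under 0.05, Sp100 and Oasl1, were below background in both groups. Sp100 had 3.79, 3.94 and 4.37 in treated tumours, against 3.11, 3.59, 3.67, 3.54 and 3.80 in control tumours, and its difference of 0.46 had an adjusted p of 0.0303 by limma only when the spread was estimated over all 6 groups. Oasl1 differed by 0.23. Ifit1 had 4.61, 5.51 and 6.15 in treated tumours, against 4.41, 4.58, 4.69, 5.04 and 5.79 in control tumours, and Ifit3 had 5.45, 6.15 and 6.70 in treated tumours, against 4.82, 5.53, 5.29, 5.80 and 6.41 in control tumours. Treated and control tumours overlapped for both genes, and both differed by 0.53 with 95% intervals that included 0. Rtp4 differed by 0.48. The largest negative difference was -0.36 in Ifi27l2a, a small membrane protein.

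None of the 14 macrophage markers was called with guadecitabine, and their median difference was -0.45. Their mean had a lowest, median and highest value of 4.73, 6.10 and 6.86 in treated tumours, against 6.19, 6.50 and 6.81 as the lowest, median and highest of the control tumours. The mean of the 33 interferon-induced genes was 5.49 ± 0.17 in treated and 5.36 ± 0.17 in control tumours (SD, n = 6 and 5). The mean of the macrophage markers was 6.02 ± 0.82 in treated and 6.50 ± 0.22 in control tumours (SD). None of the 4 ligand, 6 receptor and signalling, 11 sensing or 4 negative regulator genes was called, and the largest positive difference among the sensing genes was 0.47 in Ddx58.

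The effect of OTX015 on the interferon-induced genes differed between tumours and cultured cells in 17 of 33 genes. The effect in tumours was above that in cells in 15 genes and below it in 2, against 18% of all genes above and 14.6% below (limma contrast of the 4 groups after joint quantile normalization). The largest difference was in Ifitm3, whose effect was -0.35 in tumours and -3.65 in cells, a difference of 3.30 ± 0.17 (SE, adjusted p = 1.88e-15). Lgals3bp had effects of -0.20 in tumours and -2.72 in cells, and Samd9l of -0.26 and -2.46. The other 12 genes with a difference above 0 were Ifit2, Parp12, Rsad2, Rtp4, Ifit1, Parp9, Trim25, Xaf1, Dtx3l, Ifit3, Trim30a and Cmpk2, with differences between 0.78 and 1.89. In each of the 15 the fall was smaller in tumours. Usp18 had opposite signs, -1.03 in tumours and 0.44 in cells, a difference of -1.47 ± 0.28 (SE, adjusted p = 0.000134 by limma). Ddx60 was the other gene with a difference below 0, -0.28, and was below background in all 4 groups. With values floored at background 12 genes had a difference above 0 and 1 below it, and Ifit1, Ifit3, Trim30a and Ddx60 were no longer called. The Ifit3 difference (adjusted p = 0.0427 by limma) was also not called when any control culture, or treated culture 1, 2 or 3, was left out. Without the arrays of low spread the counts were 15 and 2. Cells grew in culture and tumours in mice, and dose, time and surrounding tissue cannot be told apart in this comparison.

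**Figure D4:**
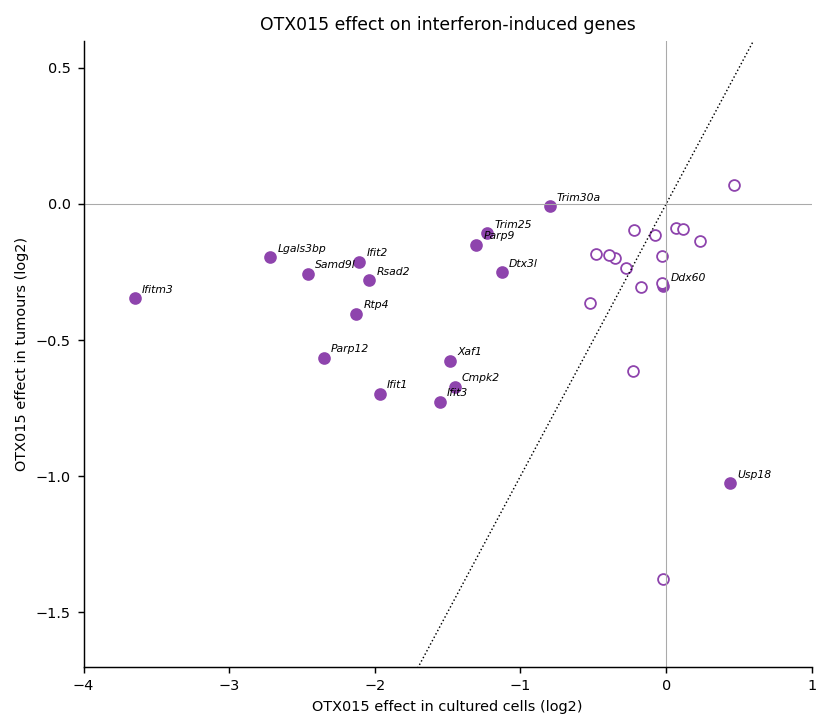
Effect of OTX015 (log2, treated minus control) on the 33 interferon-induced genes in tumours, vertical axis, against that in cultured cells, horizontal axis, after joint quantile normalization. Filled points are the 17 genes whose effects differed at an adjusted p under 0.05, and the dotted line marks equal effects. Genes from Trim30a to Ifitm3 lie left of the line, with falls of 0.80 to 3.65 in cells and of at most 0.73 in tumours, and Usp18 lies to the right with opposite signs.

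The effects of the drugs in tumours also differed, with OTX015 below guadecitabine in 9 of 33 genes and above it in 0. The same was true of 2.15% and 1.39% of all genes. Usp18 had the largest difference, with an effect of -0.99 for OTX015 and 0.71 for guadecitabine, a difference of -1.71 ± 0.30 (SE, adjusted p = 0.000797 by limma). Ifit3 had effects of -0.70 and 0.59 and a difference of -1.29, Ifit1 of -0.66 and 0.54 and a difference of -1.19, and Xaf1 of -0.57 and 0.43 and a difference of -0.99, OTX015 before guadecitabine in each pair. Cmpk2, Sp100, Ifitm3, Oasl1 and Ddx60 had differences of -0.82, -0.67, -0.65, -0.52 and -0.41, of which Sp100, Oasl1 and Ddx60 were below background in every tumour group. The count of 9 was 3 when dim genes were left out, 4 with values floored at background, 8 without arrays of low spread and 19 on the deposited values. It fell to 4 when control tumour 1 or 3 of the guadecitabine experiment was left out. Ifit1 (adjusted p = 0.0417 by limma), Cmpk2 (0.0324) and Ifitm3 (0.0289) were not called with median centring or with dim genes left out. Nor were these genes called when any of control tumours 1, 2, 3 and 4 of the guadecitabine experiment was left out. The drugs were given by different routes in separate experiments, each with its own controls, and drug and experiment cannot be told apart.

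Untreated tumours were compared with untreated cultures to describe where the genes start from. In the OTX015 experiment 12 genes were higher and 6 lower in untreated tumours than in untreated cells, against 20.5% of all genes higher and 29.3% lower. Without the arrays of low spread the counts were also 12 and 6. In the guadecitabine experiment 9 were higher and 9 lower, against 9.91% and 28.2%. Both comparisons use the same 4 control cultures, so their values are given side by side and not as support of each other. Ifi27l2a had 4.79, 5.83 and 7.11 as the lowest, median and highest value in the untreated tumours of the OTX015 experiment on the quantile-normalized scale, and on the deposited scale its mean was 5.77 ± 0.67 there and 5.09 ± 0.35 in those of the guadecitabine experiment, against 3.03 ± 0.17 in cultures (SD, n = 11, 5 and 4). Being below background in culture, it was at least 2.5-fold and 1.56-fold higher in the tumours of the OTX015 and guadecitabine experiments. Ly6e averaged 4.88 ± 0.87 and 3.58 ± 0.53 in these tumours, against 2.23 ± 0.11 in cultures (SD), and was above background only in the tumours of the OTX015 experiment, at least 1.35-fold higher. Trim30a, above background throughout, was 0.98 and 0.69 higher.

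Some genes were lower in untreated tumours than in cultures, 6 in the OTX015 and 9 in the guadecitabine experiment. Lower calls were no more frequent among the 33 genes than among all genes (29.3% and 28.2%). Ifit2 averaged 6.43 ± 0.40 and 5.98 ± 0.42 in tumours of the OTX015 and guadecitabine experiments, against 7.37 ± 0.07 in cultures (SD, n = 11, 5 and 4). Its changes were -0.94 and -1.40 (adjusted p = 0.000686 and 0.000107 by limma), with no overlap between tumours and cultures. Ifi35 was lower by 0.77 and 0.98, and Herc6, below background in both sets of tumours, was at least 1.41-fold and 1.6-fold lower. Rsad2 and Samd9l were not called in either experiment, with changes of 0.45 and 0.25 for Rsad2 and -0.26 and -0.27 for Samd9l. Cmpk2 and Xaf1 were called lower in the guadecitabine experiment (-0.99 and -0.63), and had changes of -0.33 and -0.16 that were not called in the OTX015 experiment. Ifitm3 was called higher in the OTX015 experiment (0.44) and not in the other (0.06). In the same comparisons all 14 macrophage markers were called higher, with median changes of 3.98 and 2.77, and of 8 T and NK cell markers 7 and 3 were higher. Of these 8, only 2 were above background in the tumours of each experiment, and 2 in the cultures, so most were dim. The part of macrophages, T cells and NK cells in the levels of the interferon-induced genes was not tested. The Trim21 call of the OTX015 experiment (-0.38) turned to 0.015 with an adjusted p of 0.945 by limma after quantile normalization.

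Single arrays shaped the spread within groups. In the 23 genes above background in untreated tumours of the OTX015 experiment, replicate 4 was the lowest of the 11 arrays in 14 genes and replicate 11 the highest in 10. In the 22 genes above background in untreated tumours of the guadecitabine experiment, replicate 5 was the highest of 5 arrays in 13 genes, and its mean over them was 6.46, while the other 4 lay between 6.00 and 6.17. The SD of a gene between arrays had a median over the 33 genes of 0.15 in OTX015-treated cultures and 0.13 in control cultures, 0.25 in OTX015-treated tumours and 0.31 in their controls, and 0.35 in guadecitabine-treated tumours and 0.23 in their controls. Most genes were measured by 1 probe set (24 of 33), and 9 had several. With OTX015 in culture, the second probe sets of Rtp4, Xaf1, Parp14 and Epsti1 were below background and changed by -0.05, -0.09, 0.08 and -0.01. The culture falls of Rtp4, Xaf1 and Parp14 thus rest on 1 probe set each. Further probe sets changed by -2.21 and -1.83 for Rsad2, -0.73 for Trim30a, -0.42 for Cmpk2, -0.30 for Trim21 and -0.11 for Sp100. Those of Trim30a, Cmpk2 and Sp100 were below background in both groups of cultures.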

How the data were processed

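RNA was measured in 40 samples on Affymetrix arrays, 1 per sample. The deposited values are on the log2 scale for 45141 probe sets, and per the submitters' processing notes the authors used RMA and Transcriptome Analysis Console. Versions, and which arrays were processed together, are not given in the sources used here. Arrays give no read depth, so their number limits the precision.

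The platform annotation named 1 gene for 28898 probe sets, several for 551 and none for 15692. Each of the 17097 genes took its brightest probe set. The genes, lists and tests were chosen with earlier results of these data known. Named with values were up to 8 called genes per comparison and direction by size of change, genes whose call depends on background, and up to 4 pathway or marker genes a list by smallest adjusted p. Genes without a call and others set beside a result were chosen after their values were seen.

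Tests used limma 3.58.1 in R 4.3.3 (lmFit, eBayes, two-sided, Benjamini-Hochberg over 17097 genes, called at an adjusted p under 0.05), treated against own controls, and contrasts of group means for differences between effects. OTX015 in tumours and both differences between effects used values quantile normalized over the fitted arrays. The fits of 1 group against another were tested on simulated data with 200 changed genes. The simulation drew independent noise per gene from the deposited values, without an array-wide shift or quantile normalization. Differences between effects were not simulated. Alternatives were other scalings, dim genes left out, values floored at background, the mean of probe sets, trend and robust variance, array weights, all 6 groups in 1 fit, the replicate number as a block, each array left out and, added after seeing the data, arrays with an SD under 1.9 left out.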

Additional observations from a re-analysis of the deposited data

Results flagged for a closer look

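In 12 of 102 combinations of a gene above background and a group of 4 to 10 arrays, 1 array lay far from the others of its group, judged by its gap to the nearest array over the range of the group. Chance flags about 1 in 20 such groups. In OTX015-treated cultures, Dtx3l was high in replicate 2 (5.41) and Ifitm3 in replicate 1 (6.00), and in control cultures Usp18 was high in replicate 3 (5.11). In OTX015-treated tumours, Rsad2 was high in replicate 1 (9.11), and Parp12 was low in replicate 4 (4.90), which is also an array of low spread. In guadecitabine-treated tumours, Ifitm3 and Lgals3bp were both high in replicate 4 (10.33 and 9.91), and Oas2 was high in replicate 6 (5.49). In control tumours of the guadecitabine experiment, Usp18 was high in replicate 5 (5.33), and Oas2 (4.35), Trim25 (5.13) and Samd9l (6.50) were low in replicate 2.

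The effect of OTX015 in tumours minus that in cultured cells passed the limma test in 17 genes. It was above 0 in Ifitm3 (3.30), Lgals3bp (2.52), Samd9l (2.20), Ifit2 (1.89), Parp12 (1.79), Rsad2 (1.76), Rtp4 (1.72), Ifit1 (1.27), Parp9 (1.16), Trim25 (1.12), Xaf1 (0.91), Dtx3l (0.88), Ifit3 (0.83), Trim30a (0.79) and Cmpk2 (0.78), and below 0 in Usp18 (-1.47) and Ddx60 (-0.28). The effect of OTX015 minus that of guadecitabine in tumours passed in 9 genes, Usp18 (-1.71), Ifit3 (-1.29), Ifit1 (-1.19), Xaf1 (-0.99), Cmpk2 (-0.82), Sp100 (-0.67), Ifitm3 (-0.65), Oasl1 (-0.52) and Ddx60 (-0.41).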

How the results depend on the processing

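Counts of called genes depended on the scale and on dim values, and where no cause is named the cause was not tested. In cultured cells the count of 1 higher gene was 2 with quantile normalization, with trend and robust variance and with the replicate block, and 1 to 2 with each array left out. In OTX015 tumours the 12 lower genes became 29 on the deposited values, 6 with dim genes left out (21 genes tested) and 7 with values floored at background. Over all genes, 9230 of 17097, 360 of 8857 and 305 of 17097 were called lower in these settings, in the same order. With guadecitabine 1 gene, Sp100, was called higher with all 6 groups in 1 fit. For the OTX015 effect in tumours minus that in cells, the 2 genes below 0 became 5 on deposited values, and 1 with dim genes left out or with the floor. Over all genes, 5508 of 17097, 1949 of 9090 and 1999 of 17097 were called below 0 in these settings, in the same order. For OTX015 minus guadecitabine, the 9 genes below 0 became 19 on deposited values, 3 with dim genes left out, 4 with the floor, 6 with median centring, and 4 to 12 with each array left out, with 5 when control tumour 2 or 4 was left out. For untreated tumours of the OTX015 experiment the 12 higher genes became 5 with dim genes left out, and the 6 lower ones 3 with the replicate block and 3 to 7 with each array left out, the 3 being without control culture 1. In the guadecitabine experiment the 9 higher genes became 2 with dim genes left out, 3 with the floor and 6 to 8 with each array left out. The 9 lower ones became 5 with quantile normalization and 8 to 13 with each array left out. Signs turned for Trim21 (0.015) with quantile normalization in the OTX015 experiment, and for Oasl2, Irf7, Ddx60, Epsti1 and Ly6e (each -0.030) with the floor in the guadecitabine experiment, where all their arrays sit at the floor. Over all settings, 348 of 371 values of genes called in cultured cells kept their direction and call, as did 357 of 366 in OTX015 tumours. For the OTX015 effect in tumours minus that in cells 609 of 628 did, and for OTX015 minus guadecitabine 309 of 357. For untreated tumours minus cells the numbers were 415 of 442 in the OTX015 and 279 of 317 in the guadecitabine experiment.

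Whether replicate numbers pair the arrays is not settled, because so few arrays cannot exclude it. Correlations of same-numbered arrays lay between -0.15 and 0.15 in cultures, -0.54 and 0.43 in OTX015 tumours and -0.44 and 0.04 in guadecitabine tumours. The control of the same number was the closest one for 2 of 4 treated cultures, and for 0 treated tumours with either drug. With the replicate block OTX015 tumours had 10 lower genes, Oasl1 (adjusted p = 0.0844) and Sp100 (0.0632) no longer passing by limma. Dim probe sets limit Oas3, Oasl1, Oasl2, Mx1, Irf7, Ddx60 and Sp100, which lie within background in every group.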
